A study of Mus musculus with 6 samples.

Results

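The genes described are 7 Toll-like receptor genes (Tlr1, Tlr2, Tlr3, Tlr4, Tlr6, Tlr7 and Tlr9), Unc93b1, and the pair Cd180 and Ly86, in DN1 thymocytes labelled WT or Tle134-deficient. The 10 genes were matched by symbol, and all 10 were found in each of the 6 libraries, among 24318 gene symbols. Every one of them sat alone in its row of the tables, so no value is shared with a neighbouring gene. Levels are in FPKM, sequenced fragments per kilobase of transcript relative to the mapped total of each library. Being per length, FPKM can be set side by side between genes.

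The sorted cells were thymocytes at the double-negative 1 stage, sorted as CD44-positive cells without CD25, CD8a, TCRb or other lineage markers, from mice 5 to 8 weeks old. WT was set against Tle134-deficient, read here as lacking Tle1, Tle3 and Tle4, with 3 libraries in each group. The sources used here do not state the strain, how and in which cells the Tle genes were removed, or whether a group's libraries came from separate animals. The p-values thus set a group difference only against the spread between these libraries, part of which may be technical.

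Toll-like receptors are membrane proteins that bind microbial molecules and signal through MyD88 or TRIF to NF-kappa B and interferon regulatory factors. Tlr1, Tlr2, Tlr4 and Tlr6 act mainly at the cell surface, whereas Tlr3, Tlr7 and Tlr9 bind nucleic acids in endosomes, where the chaperone Unc93b1 delivers them. Cd180, also called RP105, resembles the outer part of Tlr4 but lacks its signalling domain, and it is held at the surface by Ly86, also called MD-1. Cd180 is best known from mature B cells, dendritic cells and macrophages, and Tlr9 and Tlr7 from B cells and plasmacytoid dendritic cells.

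The labels were checked on the targeted genes first. Tle1 stood at 1.37, 1.19 and 3.61 FPKM across WT against 11.5, 11.3 and 11.1 FPKM across the labelled-deficient group. Tle3 was higher there without overlap too, at 26.1, 35.9 and 23.4 against 82.6, 77.5 and 58.6 FPKM. Tle4 overlapped, with the higher mean in the same group. The limma adjusted p was 0.0954, 0.234 and 0.726 for Tle1, Tle3 and Tle4. None of these genes had a lower mean in that group, so their levels do not bear the labels out. A whole-locus FPKM also holds reads outside any deleted exon, so it cannot check a deletion. Why the levels were higher was not tested, and the group is called the libraries labelled deficient. Of the gate genes, Cd44 ran from 27.5 to 74.3 FPKM in the 6 libraries and Cd8a from 0 to 2.48 FPKM. Il2ra, which encodes the CD25 that the sort excludes, stood at 2.83, 3.59 and 1.69 FPKM for WT and at 6.75, 7.37 and 4.22 FPKM for the other group, higher without overlap (limma adjusted p = 0.575). The intervals in the tables imply 1418481 to 4337732 fragments per library in loci with a symbol, with WT replicate 1 and labelled-deficient replicate 1 the shallowest. WT replicate 3 and labelled-deficient replicate 3 stood apart on the second principal component (-47.1 and -59.1 against 2.3 to 61).

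The promoter sequences of 4 of the genes with a higher level in the libraries labelled deficient are shown because their levels did not overlap between the groups, and because Tle proteins, which bind no DNA themselves, are recruited by factors such as Tcf/Lef and Runx. RefSeq windows of 300 bases (GRCm38.p6, from 250 bases before a start to 50 after) were present for 7 of the 10 genes and were not found for Unc93b1, Tlr7 and Tlr4. These coordinates are of another build than the mm9 loci of the expression tables. Tlr3 was also higher without overlap and has a window, but at levels near the lower limit of the data, and its bases are not shown. Bases upstream of the start are given 5′ to 3′ on the strand of the gene, up to the earliest GENCODE start where that lies further upstream. Capitals mark a match to any of the 6 motifs searched.
Tlr9 (chr9:106222348-106222597, plus strand): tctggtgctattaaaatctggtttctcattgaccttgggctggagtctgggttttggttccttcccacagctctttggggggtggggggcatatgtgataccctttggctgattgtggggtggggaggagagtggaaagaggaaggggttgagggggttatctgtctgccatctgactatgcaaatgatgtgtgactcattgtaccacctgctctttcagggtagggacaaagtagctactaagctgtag
Tlr1 (chr5:64933564-64933808, minus strand): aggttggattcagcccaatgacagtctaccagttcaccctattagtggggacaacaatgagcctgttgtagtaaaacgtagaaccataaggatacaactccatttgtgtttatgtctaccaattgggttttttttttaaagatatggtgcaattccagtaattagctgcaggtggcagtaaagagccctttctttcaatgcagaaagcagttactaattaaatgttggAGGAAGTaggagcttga
Cd180 (chr13:102693297-102693546, plus strand): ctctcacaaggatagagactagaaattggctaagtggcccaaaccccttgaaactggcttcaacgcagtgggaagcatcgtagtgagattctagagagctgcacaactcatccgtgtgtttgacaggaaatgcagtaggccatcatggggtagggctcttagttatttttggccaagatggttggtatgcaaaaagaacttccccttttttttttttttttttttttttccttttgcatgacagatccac
Ly86 (chr13:37345095-37345207, plus strand): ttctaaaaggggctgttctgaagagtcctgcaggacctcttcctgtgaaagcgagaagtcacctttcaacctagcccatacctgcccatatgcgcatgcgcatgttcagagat

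Motifs were searched on both strands in the first listed window of each gene and in those of 27025 genes. The Tcf/Lef letters CTTTGA matched in 0 of the 7 windows, against 16.2% of all windows, and the Runx letters TGTGGT in 1, that of Tlr6, against 16.9%. The Ets letters AGGAAGT matched in 3 windows, those of Tlr1, Tlr6 and Tlr9, against 9.57% of all windows. In Tlr1 the match begins at base -22, and in Tlr9 it lies after the start, at base 11, so only the former is among the bases shown. The kappa B letters, GGGA and CC with any 4 bases between, matched in the windows of Tlr2 and Tlr3 (20.5% of all windows), the interferon-stimulated letters, GAAA and GAAA with any 2 bases between, in that of Tlr6 (3.49%), and the E protein letters CAGCTG in none (16.1%). The windows of Cd180 and Ly86 held no match to any of the 6. A match is a description of letters, and no match says only that these letters are not in this window.

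Ly86, Tlr9, Cd180, Tlr1 and Unc93b1 had higher levels in all 3 libraries labelled deficient than in any WT library, with mean levels 2.46 to 8.68 times those of WT. Tlr3 was also higher in all 3, at levels near the lower limit of the data. Tlr7, Tlr6, Tlr2 and Tlr4 overlapped between the groups. None of the 9 genes that passed the filter on low values reached the threshold of a limma adjusted p of 0.05 over all 11063 genes tested. Over all genes tested, 0.642% passed it as higher and 0.108% as lower, 0.75% in all. At an unadjusted p under 0.05, 5 of the 10 genes were higher and 0 lower, where 5.68% of all genes tested were higher and 4.35% lower. Groups without overlap, higher in the libraries labelled deficient, were found for 6 of the 10 genes, Tlr3 included, and for 8.67% of all genes tested, and groups without overlap in the lower direction for 0 of the 10 and 6.56%. The deposited intervals of the groups were apart, higher in the libraries labelled deficient, for Unc93b1, Tlr1 and Ly86, and for 3.06% of all genes tested; in the lower direction they were apart for 0 of the 10 and 1.96%. A difference of at least 1 on the log2(FPKM + 1) scale was seen for 5 of the 10, and for 9.16% of all genes tested. The median difference over the 10 genes was 1.14 on the log2(FPKM + 1) scale, against 0.04 over all genes tested. Left without WT replicate 3, limma called Ly86 and Cd180 (adjusted p = 0.0262 and 0.0453), and with median-of-ratios scaling it called Ly86 (adjusted p = 0.0446). With 3 libraries against 3, an exact permutation test of 1 gene cannot go below a two-sided p of 0.1, which the 6 genes without overlap reached. Fewer cells of a type and less RNA per cell cannot be told apart in such bulk samples.

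**Figure D1:**
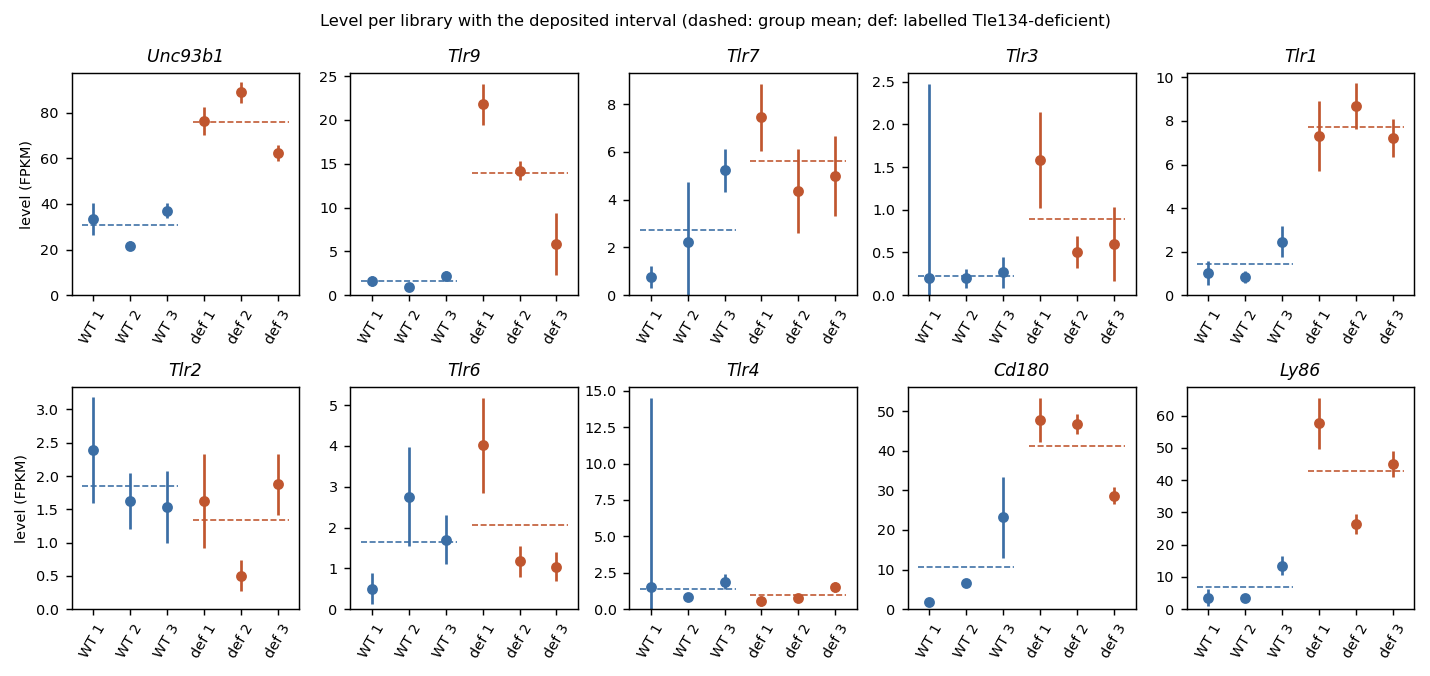
Level in FPKM (vertical axis, from 0, a separate scale for each gene) of the 10 genes in each library (horizontal axis), with the deposited lower and upper bound as a bar and the group mean as a dashed line. The 3 libraries labelled Tle134-deficient (def) lie above the 3 WT libraries for Unc93b1, Tlr9, Tlr3, Tlr1, Cd180 and Ly86, and the long bars of WT replicate 1 for Tlr3 and Tlr4 reach 2.47 and 14.5 FPKM.

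Unc93b1 (mm9 chromosome 19, 3935186 to 3949340), the chaperone of the endosomal receptors, was the most abundant of the 10 genes in both groups. It measured 33.6, 21.7 and 37.1 FPKM across WT against 76.2, 89.0 and 62.5 FPKM across the labelled-deficient group. The groups did not overlap, and neither did the deposited intervals, of which the highest WT bound was 40.6 FPKM and the lowest labelled-deficient bound 58.9 FPKM. The difference was 1.29 ± 0.42 on the log2(FPKM + 1) scale (SE, n = 3 each, limma adjusted p = 0.272).

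Tlr9 (chromosome 9, 106124929 to 106129207), the endosomal receptor for CpG DNA, measured 1.64, 0.993 and 2.19 FPKM across WT against 21.8, 14.2 and 5.84 FPKM across the labelled-deficient group. Replicate 3 of the latter was the lowest of its group and lay above all WT values, while its interval, 2.28 to 9.40 FPKM, reached below the highest WT bound of 2.78 FPKM. The log2 difference was 2.38 ± 0.55 (SE, limma adjusted p = 0.101), with a 95% interval from 1.15 to 3.61. The FPKM of Tlr9 equalled 4.58% to 5.90% of that of Unc93b1 in WT and 9.35% to 28.6% in the libraries labelled deficient.

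Tlr7 (chromosome X, 163742858 to 163768503), the endosomal receptor for single-stranded RNA, did not separate the groups. It measured 0.763, 2.21 and 5.23 FPKM across WT against 7.45, 4.36 and 5.00 FPKM across the labelled-deficient group. WT replicate 3 lay within the range of the other group, and the WT libraries differed among themselves more than the libraries labelled deficient did. Its difference was 0.98 ± 0.57 on the log2 scale (SE, limma adjusted p = 0.648), with a 95% interval from -0.29 to 2.25. Without WT replicate 3, Tlr7 too was higher in every library labelled deficient (difference 1.44), which made 7 genes without overlap in place of 6. The FPKM of Tlr7 equalled 2.27% to 14.1% of that of Unc93b1 in WT and 4.91% to 9.78% in the other group.

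Tlr3 (chromosome 8, 46481019 to 46495893), the endosomal receptor for double-stranded RNA, had the lowest mean of the 10 genes in both groups, in the libraries labelled deficient with a range that overlapped that of Tlr4, and was below the filter, which asked for 1 FPKM in at least 3 libraries. It measured 0.207, 0.200 and 0.269 FPKM across WT against 1.58, 0.508 and 0.601 FPKM across the labelled-deficient group. Only 1 library reached 1 FPKM, and the interval of WT replicate 1, up to 2.47 FPKM, covered all 6 values. Its plain difference of group means was 0.59 on the log2(FPKM + 1) scale, and with no filter on low values, over 18943 genes, its limma adjusted p was 0.746.

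Among the surface receptors, Tlr1 (chromosome 5, 65315919 to 65324797), which pairs with Tlr2 to bind triacylated lipopeptides, was the only one without overlap between the groups. It measured 1.02, 0.820 and 2.46 FPKM across WT against 7.31, 8.67 and 7.21 FPKM across the labelled-deficient group. The deposited intervals of the groups were apart as well, at no more than 3.18 FPKM across WT against no less than 5.71 FPKM in the other group. The difference was 1.90 ± 0.48 on the log2(FPKM + 1) scale (SE, limma adjusted p = 0.135).

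Tlr2 (chromosome 3, 83640194 to 83645530), the shared partner of Tlr1 and Tlr6, measured 2.39, 1.62 and 1.54 FPKM across WT against 1.62, 0.502 and 1.88 FPKM across the labelled-deficient group. The groups overlapped, with labelled-deficient replicate 2 the lowest of all. The log2 difference was -0.33 ± 0.48 (SE, limma adjusted p = 0.915), with a 95% interval from -1.40 to 0.74. The ratio of Tlr1 to Tlr2 within a library was thus 0.427, 0.506 and 1.60 in WT and 4.52, 17.3 and 3.84 in the libraries labelled deficient. In WT, Tlr1 exceeded Tlr2 in replicate 3 alone, and in the other group it did so in all 3 libraries.

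Tlr6 (chromosome 5, 65344334 to 65351273), which pairs with Tlr2 to bind diacylated lipopeptides, measured 0.501, 2.76 and 1.70 FPKM across WT against 4.01, 1.17 and 1.04 FPKM across the labelled-deficient group. The groups overlapped, and the highest value was that of labelled-deficient replicate 1. Tlr6 had a log2 difference of 0.18 ± 0.57 (SE), with a 95% interval from -1.09 to 1.45, and it was -0.24 without labelled-deficient replicate 1 and -0.18 without WT replicate 1. Tlr1 and Tlr6 are neighbours and similar in sequence: 15.3% of the 50-base stretches of the longest GENCODE Tlr1 transcript occur unchanged in that of Tlr6, so some reads could be assigned to either. No other pair among 12 Toll-like receptor genes shared such a stretch.

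Tlr4 (chromosome 4, 66488845 to 66503830), the receptor for lipopolysaccharide, measured 1.504, 0.856 and 1.90 FPKM across WT against 0.560, 0.786 and 1.53 FPKM across the labelled-deficient group. The groups overlapped only through labelled-deficient replicate 3, and the interval of WT replicate 1 ran from 0 to 14.5 FPKM. Its difference was -0.31 ± 0.46 on the log2 scale (SE, limma adjusted p = 0.920), with a 95% interval from -1.34 to 0.72.

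Cd180 (chromosome 13, 103483638 to 103496711 in WT replicate 1) varied more within WT than any other of the 10 genes, with an SD of 11.2 FPKM around a mean of 10.5 FPKM. It measured 1.86, 6.58 and 23.2 FPKM across WT against 47.9, 46.8 and 28.7 FPKM across the labelled-deficient group. The groups did not overlap, though the interval of WT replicate 3, 13.0 to 33.4 FPKM, reached past the lowest value of the other group. In that library the assembled locus ran on to position 103540578, beyond the end it had in the others, and whether this moved the value was not tested. The log2 difference was 2.35 ± 0.69 (SE, limma adjusted p = 0.216), and without WT replicate 3 it was 3.14 (adjusted p = 0.0453).

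Ly86 (chromosome 13, 37437214 to 37510905), the partner of Cd180, had the largest difference on the log2(FPKM + 1) scale and the smallest adjusted p of the 10 genes. The ratio of means was larger for Tlr9 (8.68 against 6.28). With a pseudocount of 0.1 the difference of Tlr9 was also the larger (2.91 against 2.86), as it was without labelled-deficient replicate 3 (2.86 against 2.59). Ly86 measured 3.52, 3.52 and 13.5 FPKM across WT against 57.7, 26.4 and 44.9 FPKM across the labelled-deficient group. Neither the values nor the intervals of the groups overlapped, with a highest WT bound of 16.4 FPKM and a lowest labelled-deficient bound of 23.3 FPKM. The log2 difference was 2.65 ± 0.55 (SE, limma adjusted p = 0.0688), with a 95% interval from 1.43 to 3.87, and without WT replicate 3 it was 3.21 (adjusted p = 0.0262). Of all genes tested, 0.922% had a larger difference. The ratio of Ly86 to Cd180 overlapped between the groups, at 1.89, 0.535 and 0.581 in WT and 1.204, 0.563 and 1.57 in the libraries labelled deficient, so no shift in the balance of the 2 partners was seen beyond the spread.

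**Figure D2:**
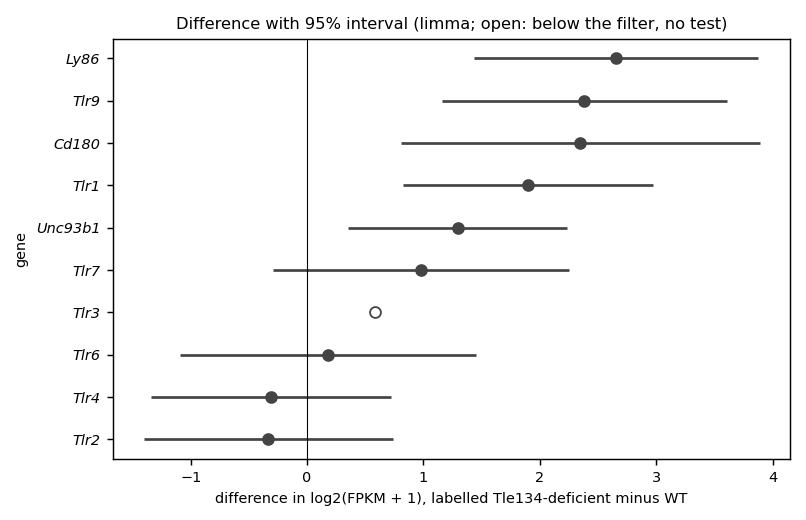
Difference in log2(FPKM + 1) between the libraries labelled Tle134-deficient and WT (horizontal axis) for each gene (vertical axis), with its 95% interval from limma. The interval lies above 0 for Unc93b1, Tlr1, Cd180, Tlr9 and Ly86, crosses 0 for Tlr4, Tlr2, Tlr6 and Tlr7, and was not computed for Tlr3 (open point); no adjusted p over all genes was under 0.05.

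The order of the levels differed between the groups below Unc93b1. In WT the mean levels ran from Unc93b1 (30.8 ± 8.08 FPKM, SD, n = 3) through Cd180, Ly86, Tlr7, Tlr2, Tlr6, Tlr9, Tlr1 and Tlr4 to Tlr3 (0.226 ± 0.0379 FPKM). Each neighbour in that order overlapped the next except Tlr4 and Tlr3. In the libraries labelled deficient the order was Unc93b1 (75.9 ± 13.3 FPKM), Ly86, Cd180, Tlr9, Tlr1, Tlr7, Tlr6, Tlr2, Tlr4 and Tlr3 (0.897 ± 0.595 FPKM). There the ranges were apart between Unc93b1 and Ly86, between Cd180 and Tlr9 (41.1 ± 10.8 and 14.0 ± 7.98 FPKM), and between Tlr7 and Tlr6, and they overlapped at the other steps. Tlr9 thus stood in 7th place in WT and in 4th place in the other group; in the latter its range was apart from that of Cd180 above it and overlapped that of Tlr1 below it.

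Tlr12, a receptor for profilin of protozoa, was lower in all 3 libraries labelled deficient. It stood at 4.85, 5.99 and 6.70 FPKM across WT against 1.93, 1.55 and 0.597 FPKM across the labelled-deficient group. Neither the values nor the intervals overlapped, with a lowest WT bound of 3.78 FPKM and a highest labelled-deficient bound of 2.65 FPKM. In WT replicate 2 Tlr12 shared its row with the neighbour Zscan20, so that value holds both genes, and Tlr12 was tested only as the sum of the pair, whose intervals overlapped (log2 difference -0.73 ± 0.47, SE, limma adjusted p = 0.701). Tlr5, Tlr8, Tlr11 and Tlr13 stayed at or below 0.858 FPKM in every library.

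B-cell genes were higher beside Ly86, Tlr9 and Cd180. Of 12 B-cell markers, 10 were higher at a limma adjusted p under 0.05 and 0 lower. Over all genes tested, 0.642% were higher and 0.108% lower. Cd22 was among the 10 (1.99, 2.72 and 1.34 against 61.3, 65.1 and 40.3 FPKM, adjusted p = 0.0154). The count of markers called higher was 0 with WT replicate 1 or with replicate 1 or 2 of the labelled-deficient group left out, and 1 with WT replicate 2 left out. Their summed level was 80.4 to 149.1 FPKM across WT against 675 to 1127 FPKM in the other group, and none of the 12 was at 0 throughout a group. For every 100 FPKM of these markers there were 1.16 to 2.03 FPKM of Tlr9 in WT and 0.865 to 1.93 FPKM across the labelled-deficient group. For Ly86 the values were 4.11 to 9.04 and 2.72 to 6.65 FPKM, for Cd180 2.32 to 15.6 and 4.24 to 4.83 FPKM, and for Tlr1 0.956 to 1.65 and 0.649 to 1.07 FPKM. On this scale, chosen after the levels had been seen, those 4 genes overlapped between the groups. Blk, a marker of the 12 that did not pass, was the largest part of the sum in WT replicates 1 and 2. It measured 44.3, 38.0 and 29.9 FPKM across WT against 83.6, 117.9 and 46.0 FPKM in the other group (limma adjusted p = 0.512). The scale in WT thus leans on Blk, and the overlap of Ly86 and Tlr1 depends on it. With Blk taken out of the sum, Ly86 and Tlr1 were lower in every library labelled deficient than in any WT library. Tlr9 and Cd180 still overlapped. With all 12 markers in the sum, Unc93b1 did not overlap and was lower in the libraries labelled deficient (24.9 to 41.8 against 6.76 to 9.25 FPKM). The same held for Tlr7 (0.948 to 3.50 against 0.450 to 0.740 FPKM), Tlr2, Tlr3, Tlr4 and Tlr6. The sum itself was much larger in that group, so a gene that rose less than the sum comes out lower on this scale. For these genes the scale thus adds nothing to the levels above, and the share of all genes lower on it was not computed. The part of B-cell RNA in the results was not tested.

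**Figure D3:**
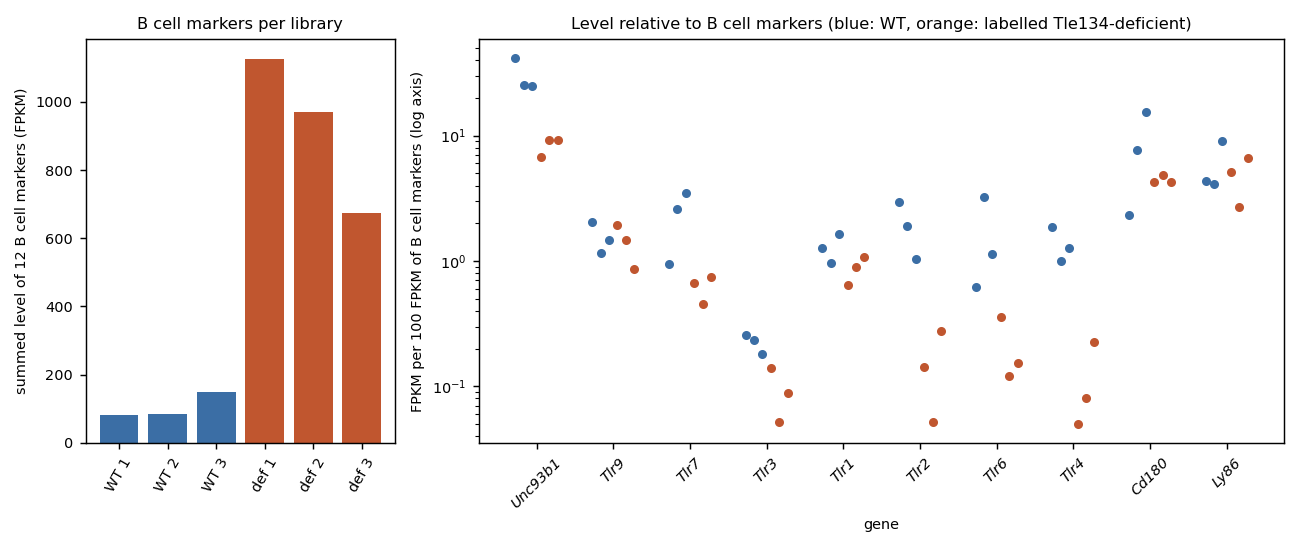
Left, summed level in FPKM (vertical axis, from 0) of 12 B-cell markers in each library (horizontal axis). Right, level of each of the 10 genes (horizontal axis) per 100 FPKM of those markers (vertical axis, logarithmic), 1 point per library. Tlr9, Tlr1, Cd180 and Ly86 overlap between WT and the libraries labelled Tle134-deficient, and the other 6 genes are lower in the latter. A gene that rose less than the summed markers comes out lower on this scale.

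No tested marker of the other cell types that carry these receptors passed the threshold. Of 10 monocyte, macrophage and neutrophil markers tested, 0 passed in either direction. The summed level of all 13 markers listed, tested or not, was 133, 319 and 639 FPKM across WT against 127, 146 and 1466 FPKM across the labelled-deficient group. In WT it was highest in replicate 3, the library with the highest Tlr9, Tlr7, Tlr1, Cd180 and Ly86 of its group, and in the libraries labelled deficient it was also highest in replicate 3, which had the lowest Tlr9, Tlr1 and Cd180 of its group. This summed level rests largely on few genes. Mpo alone gave 84.0, 232 and 257 FPKM of it across WT and 53.7, 76.2 and 589 FPKM across the labelled-deficient group. In labelled-deficient replicate 3, S100a9 gave 333 FPKM and Elane 266 FPKM. The sum thus need not follow the other markers of the list. The markers of this list differed in direction, with 6 of the 10 differences above 0, 4 below, and a median of 0.17 on the log2(FPKM + 1) scale. Mpeg1, a macrophage gene, was higher without overlap (2.596, 1.45 and 10.5 FPKM for WT, 16.8, 17.7 and 13.8 FPKM for the other group, limma adjusted p = 0.240). Emr1, of the same list, overlapped, with the higher mean in the same group (0.732, 1.49 and 12.2 FPKM for WT, 14.3, 7.54 and 23.4 FPKM for the other group, limma adjusted p = 0.399). Cd68 overlapped too, with a mean of 15.8 FPKM across WT against 6.30 FPKM in the labelled-deficient group (limma adjusted p = 0.722). None of 4 conventional and 5 plasmacytoid dendritic cell markers tested passed either. The summed level of all 6 conventional markers listed was 18.2 to 27.0 FPKM across WT against 9.65 to 61.1 FPKM in the other group. That of the 5 plasmacytoid markers was 79.8 to 128.7 against 83.5 to 118.6 FPKM. The plasmacytoid markers differed in direction: Ly6d was higher without overlap (31.8, 9.76 and 13.1 FPKM for WT, 69.1, 44.0 and 62.1 FPKM for the other group, limma adjusted p = 0.188). Ccr9 was lower without overlap (79.1, 59.6 and 55.9 FPKM for WT, 24.9, 25.3 and 7.73 FPKM for the other group, adjusted p = 0.179). Siglech, a defining marker of these cells, overlapped, at 0 to 8.38 FPKM and 0.362 to 3.54 FPKM. Of 12 T-lineage markers 0 passed, and their summed level was 447 to 1243 FPKM across WT against 285 to 834 FPKM across the labelled-deficient group. Of the 12 differences 1 was above 0 and 11 below (52.7% of all genes tested were above 0). Cd247, a T-cell receptor signalling chain, was lower without overlap (104.1, 39.7 and 105.8 FPKM for WT, 22.6, 12.1 and 11.7 FPKM for the other group, limma adjusted p = 0.0897). Cd2, on the same list, was higher without overlap (24.2, 10.4 and 54.1 FPKM for WT, 101.9, 118.5 and 70.3 FPKM for the other group, limma adjusted p = 0.232). The part of these cells in the results was not tested.

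Around the receptors, 90 further genes in 8 lists were examined, and 76 of their loci were tested. Slc15a4 and Cd40 were higher, 0 were lower and 74 did not pass, where 0.642% of all genes tested were higher and 0.108% lower. Slc15a4, an endosomal transporter needed for signalling of Tlr7 and Tlr9, rose from 4.97, 6.21 and 4.45 FPKM to 27.9, 27.0 and 21.8 FPKM (log2 difference 2.1005 ± 0.38, SE, limma adjusted p = 0.0403). Its adjusted p was 0.0776 to 0.186 when any 1 library was left out and 0.0638 with median-of-ratios scaling. Cd40, a costimulatory receptor of B cells and other antigen-presenting cells, was at 0, 1.42 and 2.41 FPKM across WT against 26.7, 43.8 and 14.5 FPKM across the labelled-deficient group (limma adjusted p = 0.0285). Without WT replicate 1 or 2 or labelled-deficient replicate 1 or 2 its adjusted p was 0.0734 to 0.148.

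Of 13 receptor partners and trafficking genes tested, 1 was higher (Slc15a4) and 12 did not pass. Cd36, a scavenger receptor that assists Tlr2 and Tlr6, was at 0, 0.239 and 0.232 FPKM across WT against 5.86, 10.4 and 3.44 FPKM across the labelled-deficient group (limma adjusted p = 0.0560). Ctss, a lysosomal protease, measured 26.5, 17.0 and 87.9 FPKM against 194, 102 and 130 FPKM (adjusted p = 0.248). Hsp90b1, the chaperone of most Toll-like receptors, overlapped between the groups, at 121, 70.4 and 304 FPKM against 143, 81.7 and 300.0 FPKM. The Tlr4 partners were uneven: Ly96 stood at 5.24, 1.003 and 79.5 FPKM across WT against 0, 1.07 and 6.48 FPKM in the other group.

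None of the 5 adaptors tested passed. Pik3ap1, the B-cell adaptor BCAP, was at 10.3, 25.1 and 11.3 FPKM across WT against 48.7, 82.8 and 35.3 FPKM across the labelled-deficient group (limma adjusted p = 0.178). Myd88, the adaptor of all the Toll-like receptors named here but Tlr3, overlapped, at 22.8, 17.7 and 25.6 FPKM against 18.7, 11.9 and 21.9 FPKM (adjusted p = 0.875). Tirap and Ticam1 were low, at no more than 2.72 and 6.70 FPKM in any library, and higher in every library labelled deficient than in WT (adjusted p = 0.650 and 0.778).

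The kinases and ubiquitin ligases had 0 of 18 genes past the threshold, 13 differences above 0 (52.7% of all genes tested were above 0) and a median of 0.32 on the log2(FPKM + 1) scale. Tab1, which activates the kinase Map3k7, had the smallest p of them (2.28, 5.07 and 2.81 against 10.1, 17.1 and 6.31 FPKM, limma adjusted p = 0.331). Irak2 overlapped (0.602, 11.1 and 4.80 against 13.4, 17.6 and 9.96 FPKM, adjusted p = 0.477). Ikbkb, a kinase of the NF-kappa B inhibitor, did not (9.44, 25.9 and 17.3 against 40.7, 33.4 and 27.2 FPKM, adjusted p = 0.509).

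The transcription factors downstream had 0 of 10 genes past the threshold, with 9 differences above 0 (52.7% of all genes tested), 5 higher and 1 lower without overlap (8.67% and 6.56% of all genes tested), and a median of 1.09. Irf5, an interferon regulatory factor that binds MyD88, was at 8.59, 5.83 and 8.00 FPKM across WT against 39.5, 33.7 and 26.8 FPKM across the labelled-deficient group (log2 difference 2.02 ± 0.38, SE, limma adjusted p = 0.05004, not past the threshold). Irf8, a factor of B cells and myeloid cells, had 13.2, 8.33 and 20.4 FPKM across WT against 45.7, 79.6 and 46.9 FPKM in the other group (adjusted p = 0.0955), and Irf7 had 6.44, 9.64 and 11.8 against 39.2, 14.9 and 19.3 FPKM (adjusted p = 0.371). The factor that was lower without overlap was Irf1, at 43.0, 85.8 and 39.2 FPKM across WT against 25.3, 25.5 and 21.1 FPKM in the other group (limma adjusted p = 0.405). Its deposited intervals were apart as well.

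Negative regulators had 0 of 12 past the threshold. Irak3, a kinase-dead brake on MyD88 signalling, was at 11.3, 6.70 and 6.35 FPKM across WT against 28.0, 40.6 and 37.2 FPKM across the labelled-deficient group (limma adjusted p = 0.0577). Rnf216, a ubiquitin ligase that acts on Toll-like receptors, had 6.91, 10.1 and 6.35 FPKM across WT against 30.0, 22.7 and 29.7 FPKM in the other group (adjusted p = 0.0934), and Zc3h12a at 7.32, 20.6 and 4.52 against 30.0, 34.6 and 15.2 FPKM (adjusted p = 0.424). Tnfaip3 and Nfkbia, feedback inhibitors of NF-kappa B, overlapped between the groups (adjusted p = 0.804 and 0.974).

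Of 17 genes that the receptors can induce, 10 were tested, 1 was higher (Cd40) and 9 did not pass, with 6 differences above 0 (52.7% of all genes tested) and 4 below. Cd80 was at 0.231, 1.24 and 1.37 FPKM across WT against 6.95, 2.26 and 5.80 FPKM across the labelled-deficient group (limma adjusted p = 0.322). Il10 measured 0, 1.23 and 0 against 19.8, 1.59 and 2.41 FPKM (adjusted p = 0.359). Tnf overlapped (adjusted p = 0.961), Il1b, Il12b and Ifnb1 were listed at 0 in the 3 WT libraries, and the chemokine Ccl3 was at 9.63, 27.4 and 19.5 FPKM against 0, 7.50 and 10.3 FPKM (adjusted p = 0.456). Of 7 other intracellular sensors tested 0 passed: Aim2 had the smallest p of them (3.83, 8.55 and 9.87 against 15.1, 21.3 and 9.05 FPKM, adjusted p = 0.580), followed by Tmem173, which encodes STING (26.2, 39.2 and 23.6 against 17.6, 22.3 and 15.01 FPKM, adjusted p = 0.677), and Ddx58 (adjusted p = 0.767).

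**Figure D4:**
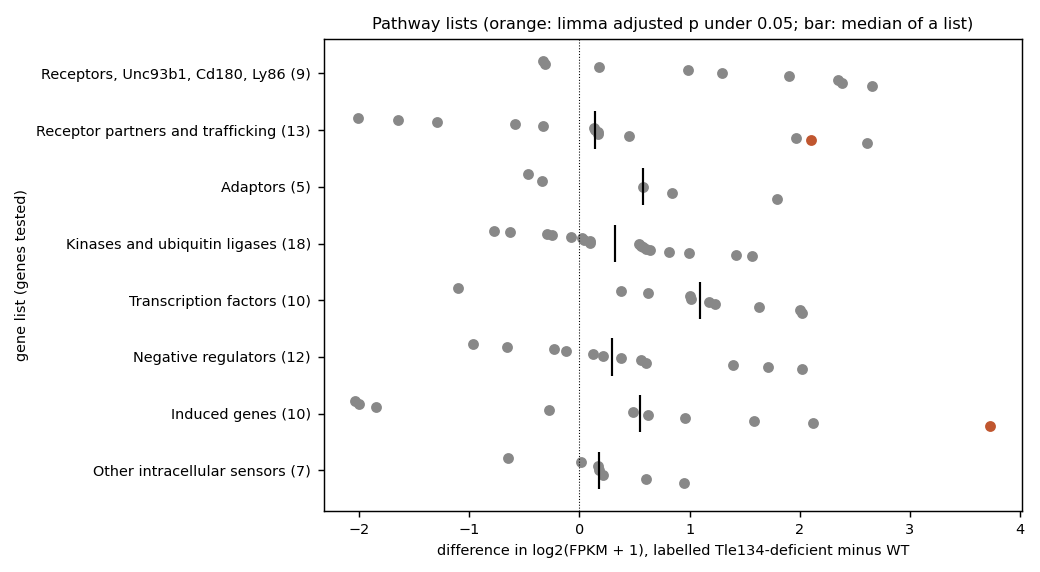
Difference in log2(FPKM + 1) between the libraries labelled Tle134-deficient and WT (horizontal axis) for each gene tested (point) in the group described here and in 7 pathway lists (vertical axis, with the number tested). Black bars mark the medians of the 7 lists, and the 2 orange points, Slc15a4 and Cd40, are the genes past a limma adjusted p of 0.05.

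Profiles most like those of the 9 tested genes were sought among 7705 genes with a mean of at least 5 FPKM, by the root mean square distance of log2(FPKM + 1) values centred on each gene's mean over the 6 libraries. Nearest to Unc93b1 were Tfeb (distance 0.0757) and Letm1 (0.128), to Tlr9 Ptpn14 (0.195) and Plcl2 (0.239), and to Tlr7 the locus shared by Apba3 and Mir3057 (0.126) and Sirt1 (0.154). Nearest to Tlr1 were Abca1 (0.0878) and the targeted gene Tle1 (0.136). Nearest to Ly86 were Ccr6 (0.292), a chemokine receptor gene, and Pydc4 (0.344), and to Cd180 Kynu (0.369) and Ms4a4c (0.373). For Tlr2 they were Hdlbp (0.126) and Lipa (0.130), for Tlr6 Stim2 (0.0995) and Zfp944 (0.0998), and for Tlr4 Fam129a (0.0840) and Anxa11 (0.105). Ccr6, among the less close of these, stood at 5.03, 4.57 and 18.5 FPKM across WT against 74.2, 48.0 and 40.1 FPKM across the labelled-deficient group. Its lowest labelled-deficient value was that of replicate 3, whereas for Ly86 it was that of replicate 2. Some gene is nearest to any profile, and how near one would lie by chance was not tested.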

How the data were processed

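RNA of sorted DN1 thymocytes was sequenced in 6 libraries, 3 labelled WT and 3 labelled Tle134-deficient. The submitters' processing notes name the mm9 build, TopHat2 2.1.1, Trimmomatic 0.38 and featureCounts 2.0.1, with no role or order. The authors deposited 1 table per library, which per the file headers gives each locus an FPKM and its 2 bounds, in the layout of Cufflinks gene tracking; the sources used here do not state the annotation, the use of strand or the confidence level of the bounds. FPKM is relative to the library total, no counts were used, and precision was judged from the bounds.

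Symbols were split on commas and rows of a gene were added. Genes sharing a row in any library were joined, giving 23401 units, of which 11063 reached 1 FPKM in at least 3 libraries and were tested. Values of log2(FPKM + 1) were fitted on group alone with limma 3.58.1 (R 4.3.3), using its trend and robust options. Benjamini-Hochberg adjustment ran over all genes tested, with a threshold of 0.05. The procedure was tested on simulated data. Fold changes on this scale understate the change of low genes. Start positions were raised by 1. Python 3.11.15 and pandas 2.3.3 joined the tables.

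The genes, lists and tests were chosen with earlier results of these data known. Named list genes are those past the threshold and up to 3 per list with the smallest p; other genes were named after their values were seen. Lrrc33 and Emr1 were matched by their current symbols. Alternatives covered pseudocounts of 0.1 and 5, filters, scalings, the empirical Bayes step, joined rows, a replicate block, the deposited bounds, and each library left out.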

Additional observations from a re-analysis of the deposited data

How the results depend on the processing

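Over all 18 alternatives the differences of Unc93b1, Tlr9, Tlr7, Tlr3, Tlr1, Cd180 and Ly86 stayed above 0 and that of Tlr2 below 0. The difference of Tlr6 was -0.24 to 0.48 with 1 library left out, below 0 when replicate 1 of either group was dropped, and that of Tlr4 was 0.0277 with the lower bounds in place of FPKM. The count of the 10 genes called was 0 as higher and 0 as lower; it was 1 higher with median-of-ratios scaling, and 0 to 2 higher when each library was left out. The number higher without overlap was 4 to 7, and the number lower without overlap was 0 to 1 with 1 library left out and 1 without both replicates 3, an alternative chosen after seeing the data. The median difference of 1.14 was 1.40 with a pseudocount of 0.1, 0.74 with 5, 1.36 with the lower bounds, 1.54 without both replicates 3, and 0.97 to 1.44 with 1 library left out. Adjusted p over the alternatives ran from 0.0262 to 0.260 for Ly86, from 0.0453 to 0.529 for Cd180, from 0.0620 to 0.321 for Tlr9, from 0.102 to 0.370 for Tlr1 and from 0.224 to 0.570 for Unc93b1. Slc15a4 lost its call in 16 of the 18 alternatives and Cd40 in 10.

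Over all genes tested, 71 were higher and 12 lower, with 1109 at an unadjusted p under 0.05. These counts were 0 and 0 without a filter and with the upper bounds, 42 and 6 without rows that name several genes, 34 and 2 with the lower bounds, 13 and 2 without both replicates 3, and 0 to 68 and 0 to 10 with 1 library left out. The lower count was 3 with a pseudocount of 0.1, 5 with 5, and 4 without trend and robust step. The causes were not tested. Fits with a replicate block called 1 gene higher and 1 lower and none of the 10; the correlation of deviations of same-numbered libraries was 0.0840, 0.182 and 0.174, each library correlated best with its own number, and the labels give no pairing. Levels under about 1 FPKM, as for Tlr3, are limited by depth.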
